A study of Mus musculus with 6 samples.

Results

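ETS factors are transcription factors that share a DNA-binding domain, the ETS domain, which recognises a short sequence with the core GGAA. The family has many members, and several of them mark a cell lineage. Elf3, Elf5 and Ehf belong to an epithelial branch, and Elf5 drives alveolar differentiation in the mammary gland. Spdef acts in secretory epithelium, for example in goblet cells. Erg and Fli1 are closely related factors of endothelium and blood cells, Ets1 is found in endothelium and lymphocytes, and Spi1, also called PU.1, directs myeloid and B cell development. Ets2, a close relative of Ets1 downstream of Ras signalling, and Etv6, a repressor needed for blood stem cells, are expressed in many tissues.

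The levels of these 10 factors were examined in 2 cell populations sorted from the mammary tumours that arise in MMTV-Wnt-1 mice. Each factor was found by its gene symbol among probe sets annotated with 1 symbol, and was represented by the probe set with the highest mean over all arrays. All 10 were measured, among 18193 genes with such a probe set, and all 10 passed the filter on dim values that left 15027 genes for testing. Factors were grouped as epithelial (Elf3, Elf5, Ehf and Spdef), endothelial (Erg, Fli1 and Ets1), myeloid (Spi1) and broadly expressed (Ets2 and Etv6).

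These mice express a Wnt1 transgene from the promoter of the mouse mammary tumour virus, mainly in mammary epithelium, and cells of both populations descend from such mice. Cells labelled tumorigenic were gated as CD24+, Thy+ and CD45-. Those labelled nontumorigenic are given as the negation of that gate. The label leaves unclear whether they could include CD45+ cells. The titles name the same 3 mice in both populations, so that there were 3 arrays against 3 from 3 animals. Strain background, age and treatment are not given in the labels, and amplified RNA of each population was hybridised to 1 array. Values are log2 expression values after RMA (robust multi-array average).

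Ptprc, the gene of CD45, read 10.21, 7.76 and 3.82 in the labelled tumorigenic arrays of mice 1, 2 and 3, against 2.33, 3.59 and 2.51 in the labelled nontumorigenic arrays. Of the other gate genes, Cd24a differed by -1.02, -0.50 and -0.15 in mice 1 to 3, tumorigenic minus nontumorigenic label, and Thy1 by 0.58, 0.84 and -0.72. Ptprc goes against the CD45- gate and Cd24a was not higher under the label gated as CD24+, so each direction below is one between labels. The 18S rRNA control also differed by label, at 7.15 ± 0.75 and 8.72 ± 0.23 (SD, n = 3 each), and its part in the results was not tested. The labelled tumorigenic array of mouse 2 stood apart in the excess of the 3' over the 5' Gapdh control, at 6.60 log2 units against 2.41 to 3.81 on the other arrays. In bulk samples such as these, fewer cells of a type and less RNA per cell cannot be told apart.

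Upstream sequences were drawn from RefSeq promoters of GRCm38.p6, which held 6 of the 10 factors: Elf3, Elf5, Spdef, Erg, Ets2 and Etv6. The 4 windows printed here belong to the factors among these whose levels separated the labels, and each gives the 250 bases before a transcription start, 5' to 3' on the gene's strand. Elf5 has 2 starts in the table and both are shown. Of the 3 Erg starts, the one printed was the only window of any factor with CAGGAAG. Capitals mark GGAA or its reverse complement TTCC.
Elf3, chr1:135258473-135258722, minus strand: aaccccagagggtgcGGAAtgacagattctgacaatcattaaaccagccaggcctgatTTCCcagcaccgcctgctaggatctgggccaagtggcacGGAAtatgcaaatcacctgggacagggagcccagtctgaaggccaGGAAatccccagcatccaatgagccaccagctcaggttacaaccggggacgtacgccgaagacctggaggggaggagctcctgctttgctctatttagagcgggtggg
Elf5, first start, chr2:103411848-103412097, plus strand: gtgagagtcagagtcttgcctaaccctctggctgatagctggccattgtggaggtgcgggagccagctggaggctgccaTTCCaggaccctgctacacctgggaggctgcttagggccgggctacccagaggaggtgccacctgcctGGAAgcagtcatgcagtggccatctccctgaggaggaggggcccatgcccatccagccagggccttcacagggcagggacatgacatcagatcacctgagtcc
Elf5, the other start, chr2:103423818-103424067, plus strand: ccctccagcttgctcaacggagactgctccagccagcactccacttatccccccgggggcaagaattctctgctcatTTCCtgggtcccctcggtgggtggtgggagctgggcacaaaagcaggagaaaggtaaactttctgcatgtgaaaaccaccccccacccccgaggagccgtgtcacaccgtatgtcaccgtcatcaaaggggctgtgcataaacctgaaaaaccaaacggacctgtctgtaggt
Erg, chr16:95459349-95459598, minus strand: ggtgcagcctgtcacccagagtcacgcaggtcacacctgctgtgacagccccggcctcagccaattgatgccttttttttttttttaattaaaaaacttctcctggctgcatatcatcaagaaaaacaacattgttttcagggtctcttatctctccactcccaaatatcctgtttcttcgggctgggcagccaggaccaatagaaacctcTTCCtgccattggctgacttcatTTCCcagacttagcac

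The core GGAA was searched on both strands and is common: 93.4% of all 32851 windows of this length held it, with a median of 3 matches. Of the 9 windows of the factors, 8 held it. The Elf3 window held 4 matches, the Elf5 windows 2 and 1, and the printed Erg window 2. The Erg windows that are not printed held 4 and 0. Longer motifs that contain the core were searched as well. CCGGAA was in 12.0% of all windows and in 0 of the 9 windows of the factors, GAGGAA in 23.3% and in 0 of 9, and CAGGAAG in 10.8% and in 1 of 9. These matches describe the letters of the windows and are not binding sites measured here.

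Of the epithelial factors, Elf3, Elf5 and Ehf had lower levels in the population labelled tumorigenic, while the groups of Spdef overlapped. Of the endothelial factors, Erg and Fli1 had higher levels there, and the groups of Ets1 were only 0.016 apart. Elf5 and Ehf were at an 8.56-fold and a 4.58-fold lower level, and Fli1 and Erg at a 2.08-fold and a 1.88-fold higher level. Spi1 was above every labelled nontumorigenic array on the labelled tumorigenic arrays of mice 1 and 2 alone. In the limma fit over all genes, 0 of the 10 factors passed an adjusted p of 0.05, as did 0 of 15027 genes (0%). At an unadjusted p below 0.05 there were 5 of the 10, against 8.5% of all genes tested (1277 genes): Elf3, Elf5 and Ehf on the lower side (3.27% of genes) and Erg and Fli1 on the higher side (5.23%). With the mouse as a block these 5 factors were again the ones, against 9.55% of genes. The arrays of the populations did not overlap in 6 of the 10, against 12.5% of genes: 3 were lower (5.59% of genes) and 3, with Ets1 added, higher (6.9%). For Ets1 this held on the chosen probe set alone. The same 6, and no others of the 10, had the same sign of difference in all 3 mice (30.2% of genes). A lack of overlap fixes this agreement, so it is no further result for these 6. Of the 10 factors, 4 had positive differences (50.7% of genes) and 6 negative ones (49.3%). The median absolute log2 difference of the 10 factors was 0.85, against 0.23 over all genes. The counts depend on single arrays: at an unadjusted p below 0.05 there were 2 factors, Elf5 and Ehf, without the labelled nontumorigenic array of mouse 2 or without mouse 2, and 3 without that of mouse 3, where Elf3 was the third. Without the labelled tumorigenic array of mouse 3 there were 7, since Spi1 and Etv6 were added.

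**Figure D1:**
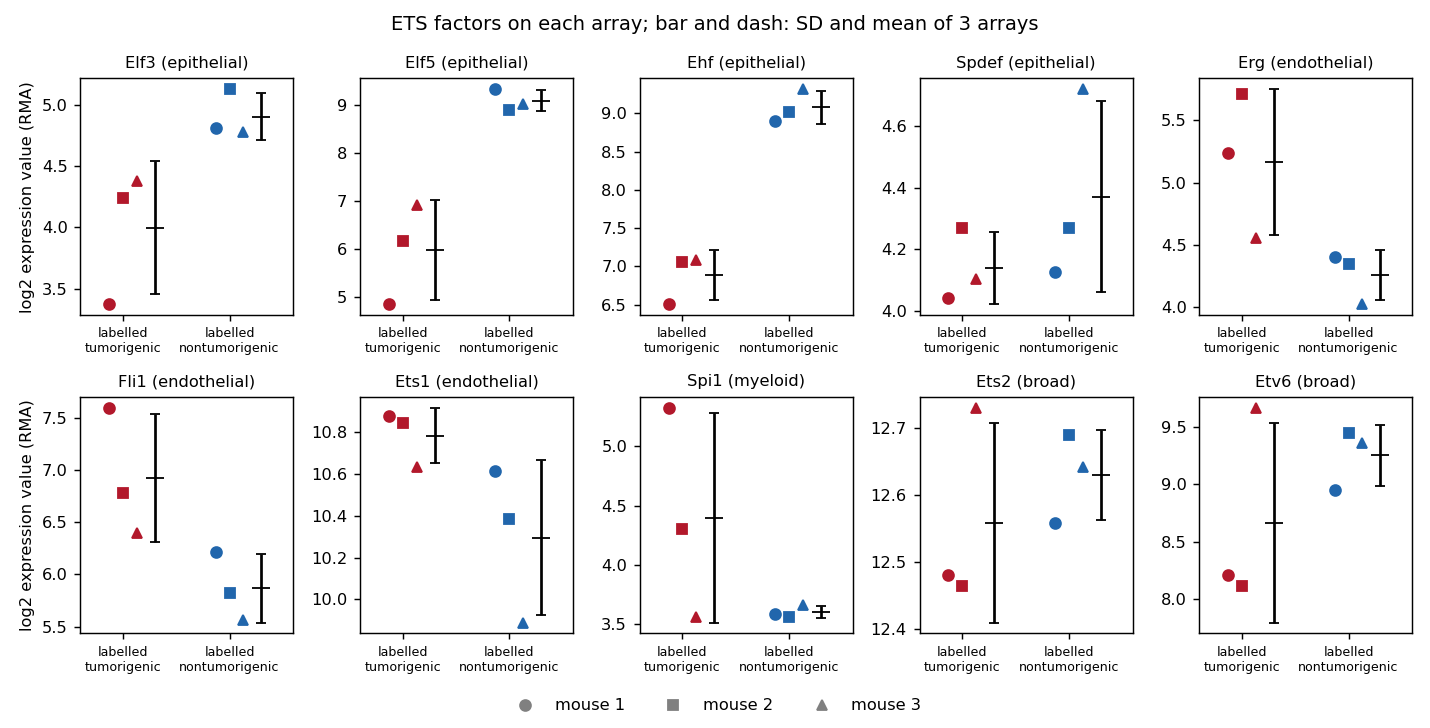
Log2 expression value of each of the 10 ETS factors on the 6 arrays, with its own vertical axis in each panel; symbols give the mouse, the dash the mean and the bar the SD of 3 arrays. The labelled tumorigenic arrays of Elf5 and Ehf lie below every labelled nontumorigenic array, and Spi1 of mouse 3 lies at the labelled nontumorigenic level.

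Among the epithelial factors, Ehf read 6.51, 7.06 and 7.09 in the labelled tumorigenic arrays of mice 1 to 3 and 8.90, 9.02 and 9.32 in the labelled nontumorigenic arrays. The groups were 1.81 log2 units apart at their nearest arrays, and the within-mouse differences of -2.39, -1.96 and -2.23 were close to one another. The estimate was -2.19 log2 units, and its 95% interval ran from -2.75 to -1.64 (SE 0.23; limma adjusted p = 0.177). Its p ranked 4 among 15027 genes. Ehf had 3 other probe sets. A pair of them gave -1.69 and -2.22 with no overlap of the groups. The last had a mean of 2.88, below the dim cut of 2.98, and gave 0.050.

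Elf5 had the largest difference of the 10 factors. It read 4.86, 6.17 and 6.91 in the labelled tumorigenic arrays and 9.32, 8.90 and 9.01 in the labelled nontumorigenic arrays. The array of mouse 1, with the highest Ptprc, was the lowest, and the groups were 1.99 log2 units apart. The estimate was -3.10 log2 units, its 95% interval running from -4.35 to -1.85 (SE 0.51; limma adjusted p = 0.247). Its other probe set gave -3.06 with values of 3.42, 3.20 and 3.72 against 7.28, 5.86 and 6.38, so mouse 1 was not the lowest there.

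Elf3 read 3.38, 4.24 and 4.38 in the labelled tumorigenic arrays and 4.81, 5.12 and 4.77 in the others, with a gap of 0.40 between the groups. The log2 difference was -0.90 (SE 0.30; limma adjusted p = 0.522), and the mice gave -1.43, -0.88 and -0.40, so the largest difference was again in mouse 1. Spdef, the fourth epithelial factor, read 4.04, 4.27 and 4.11 against 4.13, 4.27 and 4.72. Its groups overlapped, and the difference of -0.23 had an interval from -0.73 to 0.27 (limma adjusted p = 0.784), so a lower level of up to -0.73 cannot be set aside. The array of mouse 2 had the same Spdef value in both populations.

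Luminal and epithelial markers moved in the same direction as Ehf and Elf5. Of 19 measured markers 18 had negative differences, 9 of them at an unadjusted p below 0.05 and 0 at an adjusted one, with a median of -1.43 against 0.0051 over all genes. The mean level of the list was 6.31, 8.04 and 8.11 in the labelled tumorigenic arrays and 8.79 to 9.20 in the others, and 2 markers were below the dim cut in mouse 1 and none elsewhere. The claudin Cldn1 read 5.01 ± 0.41 and 7.09 ± 0.32, the keratin Krt19 6.73 ± 1.04 and 9.65 ± 0.40, and the mucin Muc1 4.88 ± 0.81 and 7.03 ± 0.41 (SD, n = 3 each). The general luminal keratins Krt8 and Krt18 differed by -3.24, -0.26 and -1.30 and by -2.90, -0.089 and -1.12 in mice 1 to 3. The epithelial adhesion molecule Epcam differed by -2.80, -1.58 and -0.60. The part of the epithelial share of the sorted cells in the factor levels was not tested.

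Milk and alveolar genes, which include targets of Elf5 in the lactating gland, all had negative differences. Of 13 measured, 9 had an unadjusted p below 0.05 and 0 an adjusted one, and the median was -2.07. Per mouse the medians were -2.95, -2.14 and -0.83. Mouse 3, where the chosen Elf5 probe set differed least, also had the smallest of these medians in size. On the other Elf5 probe set mice 2 and 3 were alike, at -2.665 and -2.663. Whether Elf5 and these genes are linked here was not tested. By smallest p the leading genes were Csn3, a casein, at -1.75 (SE 0.30), Ltf, lactoferrin, at -2.79 (SE 0.50), Btn1a1, butyrophilin, at -2.17 (SE 0.47), and the mucin Muc15 at -2.57 (SE 0.58), with limma adjusted p between 0.247 and 0.383. Other luminal transcription factors had a median difference of -0.72 over 14 genes. Grhl1, a grainyhead factor of epithelium, differed by -2.22, Gata3, a regulator of luminal fate, by -0.81, Xbp1, a regulator of secretion, by -0.63 and Stat5a, the mediator of prolactin signals, by -0.51. These 4 were the ones at an unadjusted p below 0.05, and their limma adjusted p lay between 0.522 and 0.537. Basal markers had a median of 0.19 over 15 genes, with 1, Tagln, at an unadjusted p below 0.05.

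**Figure D2:**
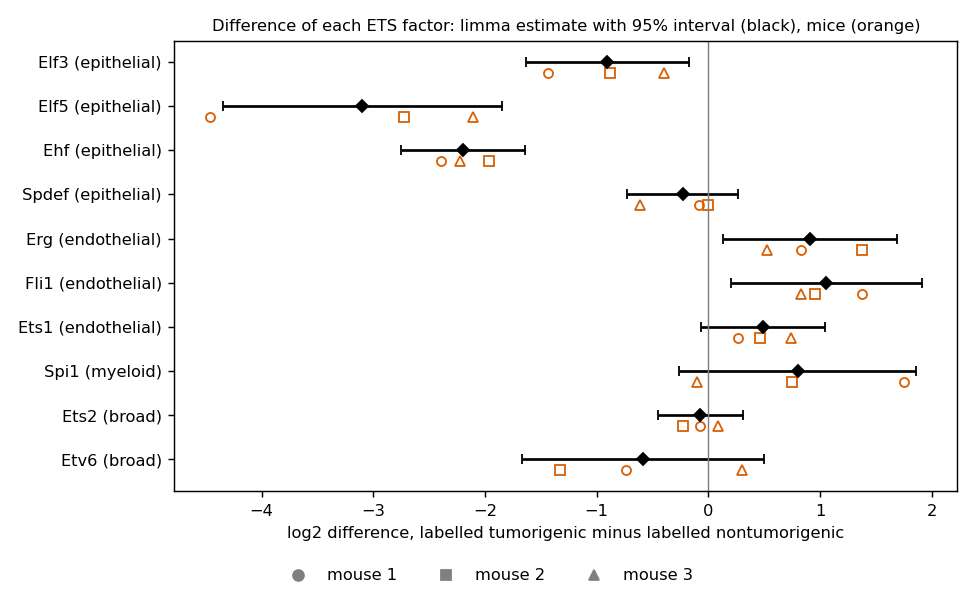
Log2 difference between labelled tumorigenic and labelled nontumorigenic arrays for each ETS factor, with the limma estimate and its 95% interval in black and the 3 within-mouse differences in orange. The interval of Ehf, from -2.75 to -1.64, is narrower than that of Elf5, from -4.35 to -1.85, and Ets2 lies at -0.071.

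On the chosen probe sets, though not on every other one, the endothelial factors were higher on the arrays labelled tumorigenic, in all 3 mice. Fli1 read 7.59, 6.78 and 6.39 there and 6.22, 5.83 and 5.56 in the other population. The groups did not overlap, with a gap of 0.18, and in both populations mouse 1 read highest and mouse 3 lowest. The estimate was 1.06 log2 units, its 95% interval running from 0.20 to 1.91 (SE 0.35; limma adjusted p = 0.522), and the within-mouse differences were 1.38, 0.96 and 0.83. The other Fli1 probe set was dim, at a mean of 3.01, and gave 0.88 with no overlap. It read 3.96, 3.06 and 3.35 in the arrays labelled tumorigenic and 2.40, 2.96 and 2.35 in the others. The values of the others all lay below the dim cut, so the mean passed it through the arrays labelled tumorigenic.

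Erg read 5.23, 5.71 and 4.55 in the arrays labelled tumorigenic and 4.40, 4.34 and 4.02 in those labelled nontumorigenic. The groups were 0.15 apart, since mouse 3 lay near the other population. The estimate was 0.91 log2 units, and the 95% interval ran from 0.13 to 1.69 (SE 0.32; limma adjusted p = 0.532). Its other probe set gave 0.61, with values of 3.42, 4.73 and 4.34 against 3.65, 3.65 and 3.36, and there the groups overlapped because mouse 1 was low.

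Ets1 was measured at 10.88, 10.84 and 10.63 in the arrays labelled tumorigenic and at 10.61, 10.38 and 9.89 in the others. The groups were only 0.016 apart and overlapped when the arrays were quantile normalised again or centred on their medians. They also overlapped when the probe sets of a gene were averaged or the probe set of largest variance was taken. The difference was 0.49 with an interval from -0.069 to 1.04 (limma adjusted p = 0.631). Of the other Ets1 probe sets, 2 gave 0.22 and 0.50 and 1 gave -0.033, the only probe set of an endothelial factor with a negative value. The groups overlapped on all of these other probe sets.

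Endothelial markers were higher as well. All 20 had positive differences, 18 at an unadjusted p below 0.05 and 0 at an adjusted one. Their median difference was 1.47, with 0.94, 2.15 and 1.27 in the single mice. The mean level of the list was between 7.74 (mouse 3) and 8.53 (mouse 2) in the arrays labelled tumorigenic and 6.86, 6.36 and 6.51 in the others, and no marker was below the dim cut on any array. Ramp2, an adrenomedullin receptor partner, read 7.61 ± 0.17 and 5.20 ± 0.07, the adhesion receptor Adgrl4 8.79 ± 0.44 and 6.31 ± 0.23, the guidance receptor Robo4 8.29 ± 0.48 and 6.19 ± 0.36, and the adhesion molecule Icam2 6.85 ± 0.40 and 5.05 ± 0.38 (SD, n = 3 each). Mouse 1 was the highest of the labelled tumorigenic arrays for Fli1, whereas mouse 2 was the highest for Erg and for the marker list. Cdh5, a cadherin of endothelial junctions, read 4.65, 4.77 and 4.47 against 4.12, 3.60 and 4.22. Pecam1, an adhesion molecule of endothelium and leukocytes, read 6.13, 6.28 and 5.90 against 6.54, 4.40 and 4.31, so its groups overlapped and mouse 1 was lower under the tumorigenic label. The part of endothelial RNA in the levels of Erg, Fli1 and Ets1 was not tested.

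Other transcription factors of endothelium were higher too, with a median of 0.77 over 17 genes, 15 of them positive. At an unadjusted p below 0.05 there were 6 higher and 1 lower, and 0 at an adjusted one. The homeobox factor Hhex differed by 2.08, Sox17, a factor of arterial endothelium, by 1.41, its relative Sox7 by 1.32 and the repressor Bcl6b by 1.30, with limma adjusted p between 0.22 and 0.486.

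Blood cells also express members of this group, and their markers moved with the labels in some mice. T and NK cell genes, of which Ets1 is a regulator, had a median difference of 1.12 over 13 genes, which split into 2.71, 0.10 and -0.03 by mouse, and 0 were at an unadjusted p below 0.05. Among platelet and megakaryocyte genes, where Fli1 acts, 4 were measured. Selp, shared by platelets and endothelium, differed by 1.44, and the platelet chemokine Pf4 by 1.87, or by 3.95, 1.46 and 0.20 in the single mice, and the groups overlapped in neither. The platelet receptor genes Gp9 and Itga2b differed by -0.10 and -0.038. All 5 measured adipocyte genes had positive differences, with a median of 0.76 and 2 at an unadjusted p below 0.05: Car3, a carbonic anhydrase, differed by 5.61 and the adipokine Adipoq by 3.04, and neither overlapped between the groups. Fibroblast genes had medians of 0.94, 0.58 and -0.93 in mice 1, 2 and 3, and pericyte genes 0.40, -0.16 and -0.21, with 0 at an unadjusted p below 0.05 in either list. Of 6 measured neutrophil genes, 2 had positive and 4 negative differences, with a median of -0.091. Among them S100a9 differed by 1.56 and Ltf, also a milk gene, by -2.79. The part of these cells in the levels of the ETS factors was not tested.

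Spi1, the myeloid factor, read 5.33, 4.30 and 3.56 in the labelled tumorigenic arrays of mice 1, 2 and 3, and 3.58, 3.56 and 3.66 in the labelled nontumorigenic arrays. Mice 1 and 2 were above every labelled nontumorigenic array, mouse 3 was not, and the within-mouse differences were 1.75, 0.75 and -0.098. The estimate was 0.80 log2 units, its interval running from -0.26 to 1.86 (SE 0.44; limma adjusted p = 0.668), and on the array of mouse 3 alone it was -0.038. Spi1 has 1 probe set, so no other was available for agreement. Its values were low: the 4.30 of labelled tumorigenic mouse 2 lay below the median of that array, 4.40.

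Macrophage and myeloid markers had the same order of mice as Spi1. Their mean level over 20 genes was 9.97, 8.41 and 5.44 in labelled tumorigenic mice 1 to 3 and 4.11 to 4.27 in the others, where 2 to 4 markers were below the dim cut. Of these genes 19 had positive differences, 17 at an unadjusted p below 0.05 and 0 at an adjusted one, and the median difference was 3.996, with 6.44, 4.22 and 1.06 by mouse. In mouse 3, where Spi1 lay at the labelled nontumorigenic level, the complement chain C1qb read 8.01 on that array and 3.36 to 4.49 on the labelled nontumorigenic arrays, and the mannose receptor Mrc1 7.01 against 3.51 to 4.78. Csf1r, the colony-stimulating factor receptor and a known target of PU.1, read 12.47, 11.29 and 7.12 against 4.86, 4.98 and 5.89. Spic, the closest relative of Spi1 among the genes tested and a factor of red pulp and bone marrow macrophages, read 6.45, 4.24 and 3.00 against 3.35, 3.26 and 3.26. It repeated the order of mice seen for Spi1, and its difference was 1.27 (SE 0.83; limma adjusted p = 0.708).

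Other myeloid transcription factors differed little as a list, with a median of 0.08 over 12 genes and 0 at an unadjusted p below 0.05. Irf8, a partner of PU.1, differed by 1.04 on average but by -0.76 in mouse 3, and Ikzf1, a factor of lymphoid and myeloid cells, by 2.11 and by -1.10 in mouse 3. Cebpa, which acts with PU.1 in granulocyte and macrophage precursors and is also expressed in adipocytes and epithelium, differed by 0.43. B cell genes, the other lineage of PU.1, had a median of 0.13 over 5 genes, and 0 were at an unadjusted p below 0.05. Cd22, an inhibitory receptor of B cells, read 5.80, 3.83 and 2.95 against 3.05, 3.05 and 2.93, the order of mice seen for Spi1. The other leading genes Cd79b, Pax5 and Cd79a differed by 0.13, 0.13 and 0.091.

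**Figure D3:**
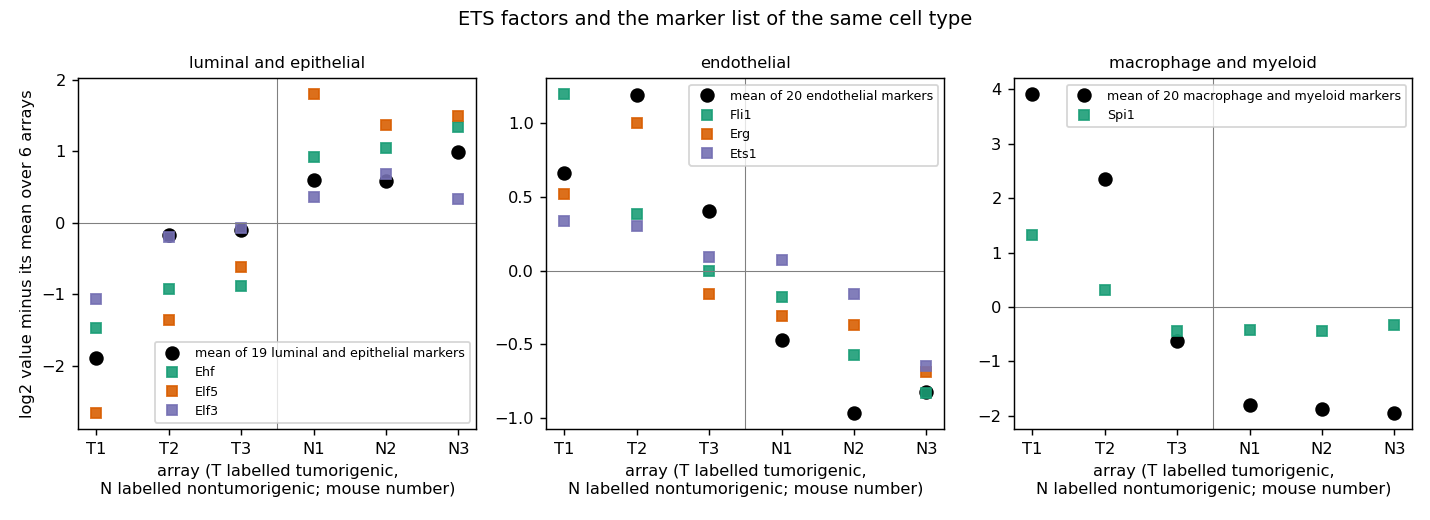
Log2 value of ETS factors (squares) and the mean of the marker list of the same cell type (black circles) on each array, each minus its own mean over the 6 arrays. Spi1 of labelled tumorigenic mouse 3 lies with the labelled nontumorigenic arrays, while the mean of the 20 macrophage markers on that array, 5.44, lies above their 4.11 to 4.27.

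Ets2 and Etv6, the broadly expressed factors, did not divide the arrays by label. Ets2 was 12.48, 12.46 and 12.73 in the arrays labelled tumorigenic and 12.56, 12.69 and 12.64 in the others, and the groups overlapped. The difference was -0.071, with an interval from -0.45 to 0.31 (limma adjusted p = 0.923). Its other probe sets gave -0.19 and 0.12. Etv6 read 8.21, 8.12 and 9.66 against 8.95, 9.44 and 9.36. Mice 1 and 2 were below every labelled nontumorigenic array and mouse 3 above them all, which gave a difference of -0.59 with an interval from -1.67 to 0.50 (limma adjusted p = 0.755). Its other probe set gave -0.55 but read 6.24 in mouse 3, inside the range of 5.98 to 6.59 of the other population, so the high value of mouse 3 was seen on 1 of 2 probe sets.

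**Figure D4:**
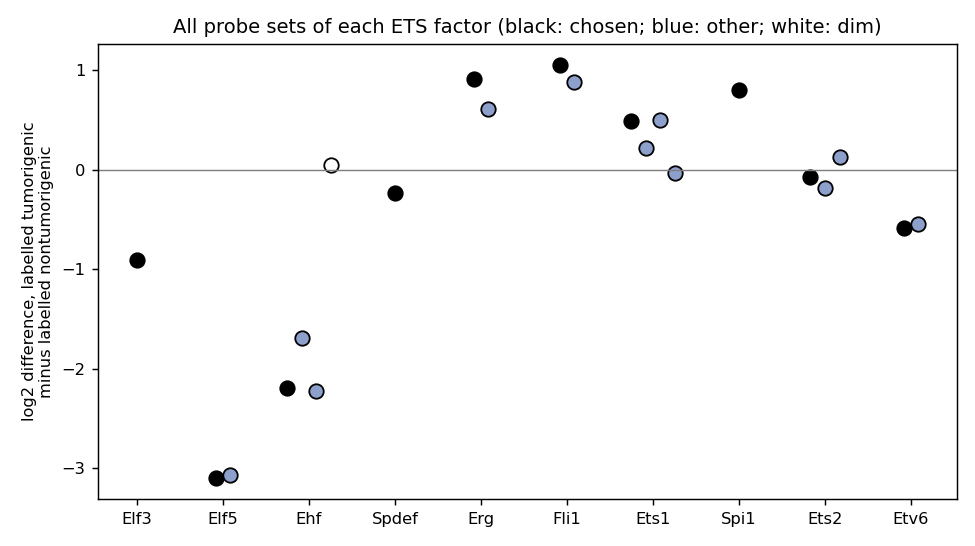
Log2 difference between labelled tumorigenic and labelled nontumorigenic arrays for all 22 probe sets of the 10 ETS factors; black is the chosen probe set, blue another and white a probe set below the dim cut of 2.98. Of the 21 above the cut, 19 have the sign of the chosen probe set, and the exceptions belong to Ets1 and Ets2. Both counts include the 10 chosen probe sets themselves, which have that sign by construction. Elf3, Spdef and Spi1 have 1 probe set each, so no other could be compared.

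Of 16 other ETS genes on the list, 13 were tested. Spib was below the dim cut, and Etv1 and Fev had no probe set with 1 symbol. Of the 13, 6 differences were positive and 7 negative, with a median of -0.023, and 1 had an unadjusted p below 0.05. This was Elk3, a ternary complex factor found in vessels, which read 10.23, 10.19 and 10.15 in the arrays labelled tumorigenic and 9.80, 9.78 and 9.82 in the others. Elk3 varied little within each group, and its difference was 0.39 (SE 0.14; limma adjusted p = 0.532). Etv5, an effector of fibroblast growth factor signals, read 8.72, 8.38 and 10.58 against 9.79, 10.47 and 9.54, and its relative Etv4 read 5.17, 5.39 and 6.85 against 6.08, 6.63 and 6.56. As for Etv6, mouse 3 was the highest and mice 1 and 2 were the lowest of all arrays in both genes. Elf1, a factor of blood cells, read 7.81, 5.90 and 6.70 against 7.80, 7.64 and 7.44. The remaining genes, Elf2, Elf4, Elk1, Elk4, Erf, Etv2, Etv3 and Gabpa, differed by -0.30 to 0.13.

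Of the 10 factors, 6 form adjacent pairs in the mouse genome, with 0 coding genes between them in the RefSeq annotation of GRCm38.p6: Ehf and Elf5 on chromosome 2, Fli1 and Ets1 on chromosome 9, and Erg and Ets2 on chromosome 16. The members of the first pair were both lower, at -2.19 and -3.10, while the next coding genes on either side, Apip and the catalase gene Cat, differed by -0.28 and -0.16. Fli1 and Ets1 differed by 1.06 and 0.49, with 0.21 for Kcnj1 and -0.17 for Kirrel3 beside them. Erg differed by 0.91 and Ets2 by -0.071, and the potassium channel gene Kcnj15 next to Erg differed by 1.14 with an SE of 0.67. None of these neighbours had an unadjusted p below 0.05. Whether a pair differs from its neighbours was not tested.

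**Figure D5:**
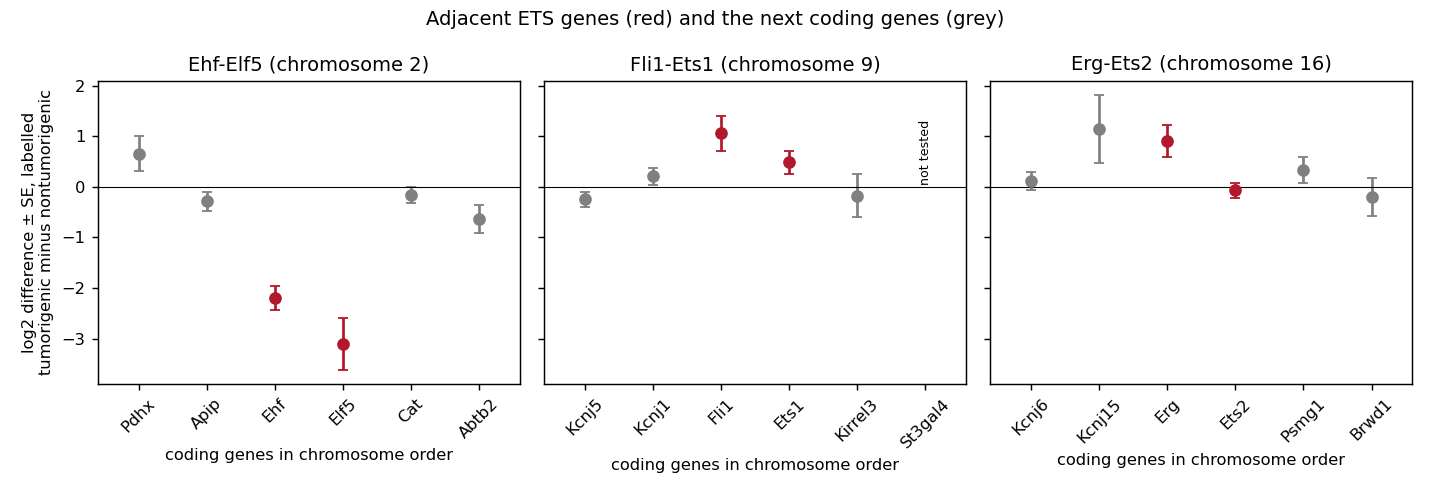
Log2 difference with its SE for the 3 adjacent pairs of ETS genes (red) and the next coding genes on either side (grey), in chromosome order and not to scale. Ehf and Elf5, at -2.19 and -3.10, lie below their neighbours, which range from -0.64 to 0.65. St3gal4 was not among the genes tested.

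The genes with the pattern most like each factor were found by the root mean square distance between log2 values, each centred on its own mean over the 6 arrays. For Ehf these were Cldn1 (distance 0.14), the nesprin gene Syne4, Psrc1 and 2210407C18Rik, all within 0.28. For Elf5 they were Krt19 (0.25), Apol7a, the transmembrane protease gene Tmprss13 and the nucleoside transporter gene Slc28a3, within 0.36. The nearest to Erg were Cntn2 (0.10), the lysosomal enzyme gene Naglu, Plekho2 and the epoxide hydrolase gene Ephx2, none of which is on the endothelial list. Nearest to Fli1 were Ubash3b (0.14), Tal1, a factor of blood and endothelium, the leukocyte adaptor gene Lat2 and Eepd1. Spi1 was nearest to Rhoh (0.10), a GTPase gene of blood cells, Tnfaip8l2, Cd300ld and the sialic acid lectin gene Siglece, and in mouse 3 these differed between the labels by -0.20 to 0.048. The arrays of a mouse share an animal, and these distances are descriptions of 6 arrays.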

How the data were processed

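Sorted tumour cells were measured on 6 arrays. The authors deposited log2 expression values per probe set, normalised by RMA per the submitters' processing notes; the version is not given in the sources used here. RMA gives all arrays a common distribution, which would remove a shift of most transcripts. The log2 scale was inferred from the range, up to 13.87. Precision is limited by the number of arrays.

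Of 45101 probe sets, 64 were controls and 34945 had 1 gene symbol in the platform annotation; 34741 of these matched RefSeq. The dimmest 25% (up to 2.98) were left out. limma 3.58.1 (lmFit and eBayes, R 4.3.3) was fitted to 15027 genes on all 6 arrays with no covariate, with two-sided p-values adjusted by Benjamini-Hochberg over all genes, and was tested on simulated data. An exact permutation test of 3 against 3 arrays cannot go below 0.1 and was not used. Mouse numbers pair the arrays, as the populations share animals: same-mouse deviations correlated across genes at 0.079, 0.136 and 0.086.

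The factors and gene lists were chosen with earlier results of these data known. Named were all 10 factors, up to 4 genes per list with the smallest p, all other ETS genes, and 4 genes of like pattern for each of 5 factors. Krt8, Krt18, Epcam, Cdh5, Pecam1, Csf1r and the chromosomal neighbours were named after their values were seen. Alternatives covered the mouse as a block, the dim filter, normalisation, variance prior, array weights, choice of probe set, and each array or mouse left out.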

Additional observations from a re-analysis of the deposited data

How the results depend on the processing

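Across 18 alternatives, 176 of 178 differences of the factors kept their direction, and 0 of the 10 factors passed an adjusted p of 0.05 under any of them. The mouse block, the dim filter settings and the variance prior leave the estimates of these factors unchanged. The directions under those settings were therefore fixed in advance and say nothing about stability. For the 6 factors whose groups did not overlap, array weights or leaving out an array or mouse cannot turn the sign either. Elf3, Spdef and Spi1 have 1 probe set each, so the choice of probe set cannot move them. The count of 176 is therefore no measure of stability. With the mouse as a replicate block, 5 factors had an unadjusted p below 0.05, 0 factors and 0 genes passed an adjusted one, and the block changed no call. Elf5 ranged from -3.59 to -2.42 and Ehf from -2.31 to -2.01, and both kept an unadjusted p below 0.05 in all 18. Fli1 did so in 15 and Erg in 11. Genes past the adjusted threshold numbered 1 with no dim filter and 1 when probe sets of a gene were averaged. When an array or a mouse was left out they numbered 0 to 18, with 18 without the labelled tumorigenic array of mouse 3. Factors at an unadjusted p below 0.05 then numbered 2 to 7. Ets1 turned to -0.033 with the probe set of largest variance, its one negative probe set. Ets2 ranged from -0.16 to 0.0058 when an array or mouse was left out, and turned positive without mouse 2. A comparison with the labelled tumorigenic array of mouse 3 alone was added after seeing the data. There 7 factors kept their sign, which the lack of overlap fixed for 6 of them. Spi1 was -0.038, Ets2 0.10 and Etv6 0.41. The cause of these changes was not tested. Spdef and Spi1 were too dim to be tested when the dimmest 50% were left out.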
